A study of Mus musculus with 2 samples.

Results

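RNA sequencing values were examined for 10 genes, the receptor chains of the common gamma chain cytokine family and the Janus kinases (JAKs) that they carry, in sorted mouse regulatory T cells of effector phenotype (effector Treg cells). The genes were taken by symbol, namely Il2ra, Il2rb, Il2rg, Il7r, Il4ra, Il21r, Il9r, Il15ra, Jak1 and Jak3, and all 10 were found among the 46398 symbols of the deposited values. Nrn1-/- cells and Nrn1+/- cells gave 1 library each, both from C57BL/6 mice carrying the Foxp3DTRgfp allele, in which Foxp3 drives a green fluorescent diphtheria toxin receptor. Both were sorted as CD4+ CD25+ cells of effector phenotype, high for CD44 and positive for the Foxp3 reporter. The control is heterozygous for Nrn1, although its title calls it wild type. Nrn1 encodes neuritin, a small protein tethered to the cell surface. The sources used here do not give the age, sex or number of the mice.

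The common gamma chain is shared by the receptors for IL-2, IL-4, IL-7, IL-9, IL-15 and IL-21. It carries Jak3, while the partner chain of each receptor carries Jak1, and the paired kinases phosphorylate the receptor and then STAT proteins, chiefly STAT5 for IL-2, IL-7, IL-9 and IL-15, STAT6 for IL-4 and STAT3 for IL-21. Treg cells make little IL-2 and depend on it, hold the high-affinity IL-2 receptor at a high level, and usually carry little IL-7 receptor compared with other T cells.

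FPKM counts fragments per kilobase of transcript relative to depth, so levels can be compared between genes. Since each genotype has 1 library, the spread between mice is unmeasured and no test was made. The spacing of low values in genes with a single transcript put the value of 1 fragment on 1 kb at 0.02505 FPKM for Nrn1-/- cells and 0.01905 FPKM for Nrn1+/- cells. From these steps the fragments behind each gene were estimated, and the 95% intervals given with fold changes cover counting error only and take the scaling as deposited. Nrn1 itself stood at 4.62 FPKM in Nrn1-/- cells, against 66.5 FPKM in Nrn1+/- cells. Of 30 markers of CD8 T, NK, B, myeloid, dendritic, erythroid and mast cells, 8 lay at 1 FPKM or more in Nrn1-/- cells and 6 in Nrn1+/- cells, while 8 were listed at 0 in Nrn1-/- cells and 3 in Nrn1+/- cells. The highest was Cd79b at 5.14 FPKM in Nrn1-/- cells and 4.85 FPKM in Nrn1+/- cells, and they summed to 23.5 FPKM in Nrn1-/- cells and 24.8 FPKM in Nrn1+/- cells. The Treg and CD4 T cell markers Foxp3, Ctla4, Ikzf2, Tnfrsf18, Cd3e and Cd4 were all at 54.4 FPKM or more, summing to 1455 FPKM in Nrn1-/- cells and 1769 FPKM in Nrn1+/- cells. Xist, expressed from the inactive X chromosome of females, was at 139 FPKM in Nrn1-/- cells and 143 FPKM in Nrn1+/- cells, and 4 Y-linked genes were at most 0.0926 FPKM in either.

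The genes sit on 7 chromosomes, and 4 of them form neighbouring pairs. The positions are from GENCODE M21 on GRCm38, the build named in the submitters' processing notes. The deposited loci of Il2rb, Il2rg, Il7r, Il4ra and Jak1 have other bounds, such as chr4:101068983-101265282 for Jak1. Transcript lengths used to estimate fragments are also from GENCODE M21. Il2ra (ENSMUSG00000026770.5, chr2:11642807-11693193, plus strand) is followed by Il15ra (chr2:11705290-11734317, plus strand) after 12096 bases with no other protein-coding gene between them. Il4ra (chr7:125552120-125579474, plus strand) is followed by Il21r (chr7:125603429-125633570, plus strand) after 23954 bases, again with none between. Il2rb (chr15:78479256-78495271) and Il7r (chr15:9505788-9530176) share a chromosome but lie far apart, and both are on the minus strand. Il2rg (chrX:101264378-101268255), Il9r (chr11:32187541-32200279) and Jak1 (chr4:101152367-101265282) are on the minus strand and Jak3 (chr8:71676296-71690575) on the plus strand. The neighbours did not differ alike: as deposited, Il21r was higher and Il4ra lower in the Nrn1-/- library, while Il2ra and Il15ra lay within 1.07-fold of the Nrn1+/- level.

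Promoters of a pair of members are shown because their genes lie toward the opposite ends of the differences, Il7r among the lowest in the Nrn1-/- library relative to the Nrn1+/- library and Il21r the highest. Each sequence is the 250 bases before the RefSeq start (GRCm38.p6), at chr15:9529877-9530126 on the minus strand for Il7r and chr7:125603179-125603428 on the plus strand for Il21r. Capitals mark matches on either strand to TTCNNNGAA, the letters bound by STAT dimers, to GGAA, the core of ETS factor sites, and to GTAAACA, a FOXO site.
Il7r: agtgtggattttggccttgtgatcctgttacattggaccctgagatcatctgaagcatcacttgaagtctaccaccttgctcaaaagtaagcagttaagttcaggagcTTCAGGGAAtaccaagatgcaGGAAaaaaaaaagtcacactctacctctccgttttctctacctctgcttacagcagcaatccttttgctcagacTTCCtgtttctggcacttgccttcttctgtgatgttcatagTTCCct
Il21r: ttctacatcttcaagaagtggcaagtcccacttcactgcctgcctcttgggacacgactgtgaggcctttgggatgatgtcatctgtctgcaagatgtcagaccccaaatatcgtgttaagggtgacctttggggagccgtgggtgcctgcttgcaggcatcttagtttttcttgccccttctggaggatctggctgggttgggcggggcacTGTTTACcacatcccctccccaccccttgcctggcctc
The Il7r window held 1 STAT match, 142 to 134 bases before the start, and 4 ETS cores, 1 of which overlaps the STAT match. The Il21r window held 1 FOXO match, 38 to 32 bases before the start, and 0 ETS cores. The window of Il9r, the lowest gene when no pseudocount is used, is not shown and held 0 ETS cores as well, with 0 STAT and 0 FOXO matches. Over 32851 such windows of all genes, 7.02% held the STAT letters, 93.4% an ETS core and 3.17% the FOXO letters. Windows were found for 9 of the 10 genes, all but Il2rb, 10 windows in all, and among these only Il7r had the STAT letters and only Il21r the FOXO letters. GENCODE M21 also places the first exon of a non-coding Il7r transcript across the distal part of the Il7r window. A match is a stretch of letters, not a measured binding site.

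The IL-2 receptor genes were by far the most abundant of the family in both libraries. Il2ra, encoding CD25, the alpha chain that raises the affinity for IL-2 and on which the cells were sorted, stood at 564 FPKM in Nrn1-/- cells, against 601 FPKM in Nrn1+/- cells. Il2rb, the signalling beta chain shared by the IL-2 and IL-15 receptors, stood at 384 FPKM in Nrn1-/- cells and 420 FPKM in Nrn1+/- cells. Il2rg, the common gamma chain itself, stood at 325 FPKM in Nrn1-/- cells, against 359 FPKM in Nrn1+/- cells. Each chain was thus slightly lower in Nrn1-/- cells, and all lay at percentile 97.7 or higher among the 12344 genes that averaged 1 FPKM or more. Together they made up 83.3% of the summed FPKM of the 8 receptor genes in Nrn1-/- cells and 84.3% in the Nrn1+/- library. The differences were 1.07-fold for Il2ra (counting interval 1.05 to 1.09), 1.09-fold for Il2rb (1.08 to 1.11) and 1.11-fold for Il2rg (1.09 to 1.13), all lower in the Nrn1-/- library. In bulk RNA, fewer cells that express a gene and less of its RNA per cell cannot be told apart.

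Ratios between chains within a library do not depend on how the libraries were scaled to each other. Il2ra to Il2rg was 1.74 in Nrn1-/- cells and 1.67 in the Nrn1+/- library, and Il2rb to Il2rg was 1.18 in Nrn1-/- cells and 1.17 in Nrn1+/- cells. The transcripts of the trimeric IL-2 receptor therefore stood in nearly the same proportion in both libraries, with ratios that differed by at most 1.04-fold.

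**Figure D1:**
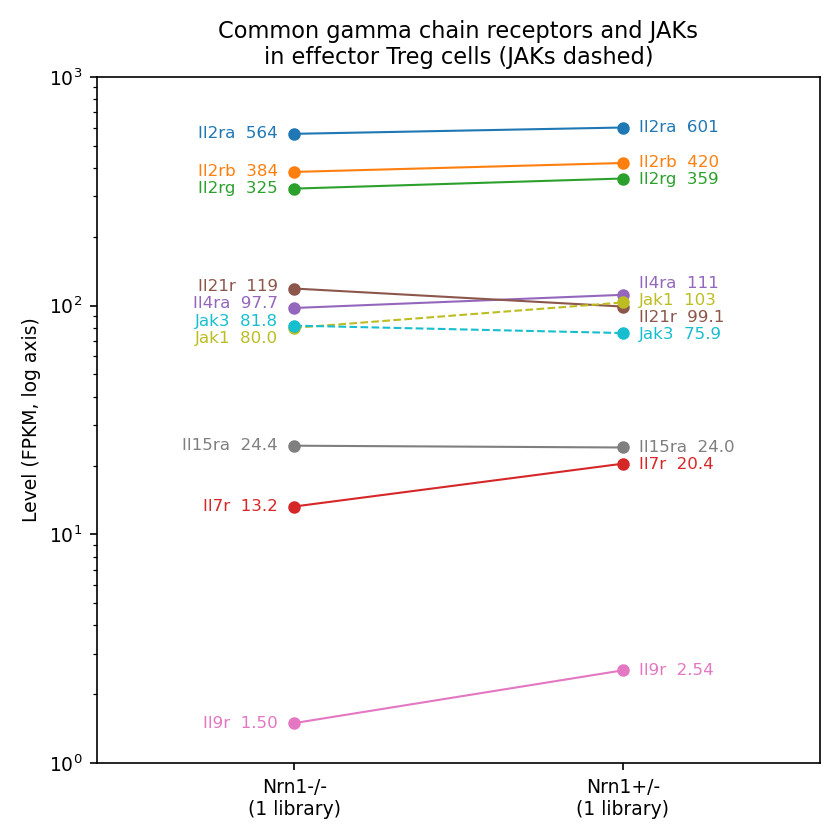
Level of each of the 10 genes in FPKM on a log axis, with the Nrn1-/- library at left, the Nrn1+/- library at right, and a line joining the 2 values of a gene (1 library each, so no error bars). The IL-2 receptor genes lie highest in both libraries, Il9r lies lowest, the line of Il21r crosses those of Il4ra and Jak1, and the line of Jak3 crosses that of Jak1.

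Il7r, the private alpha chain of the IL-7 receptor, stood at 13.2 FPKM in Nrn1-/- cells, against 20.4 FPKM in Nrn1+/- cells. It was 1.54-fold lower in Nrn1-/- cells (counting interval 1.45 to 1.63), on an estimated 1750 fragments in Nrn1-/- cells and 3530 in Nrn1+/- cells. Its log2 ratio with a pseudocount of 1 FPKM was -0.586, just past 1.5-fold, which is 0.585 in size, and lay at percentile 5.27 of all genes tested. Il7r was the only one of the 10 genes past 1.5-fold on that scale as deposited. Among all genes tested, 5.27% were at least 1.5-fold lower and 7.5% at least 1.5-fold higher, so a count of 1 of 10 lower and 0 of 10 higher is near what all genes show.

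Among 7 genes known as regulators of Il7r, 0 were past 1.5-fold in either direction and the median log2 ratio was -0.14. Foxo1, an activator of Il7r, was at 16.3 FPKM in Nrn1-/- cells, against 18.6 FPKM in Nrn1+/- cells. Gfi1, a repressor, was at 29.3 and 23.3 FPKM in Nrn1-/- and Nrn1+/- cells. Gabpa, a subunit of the ETS factor GABP, which acts at the Il7r promoter, was at 24.0 FPKM in Nrn1-/- cells and 22.1 FPKM in Nrn1+/- cells. These 3 genes differed by at most 1.26-fold, Gfi1 the most. Of the rest, Ets1, an ETS factor, had the largest difference at 156 FPKM in Nrn1-/- cells, against 210.3 FPKM in Nrn1+/- cells. Foxo3 had a log2 ratio of -0.29, Runx1 of -0.14 and Runx3 of 0.35.

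Il4ra, which pairs with the common gamma chain for IL-4 and with Il13ra1 for IL-13, stood at 97.7 FPKM in Nrn1-/- cells, against 111 FPKM in Nrn1+/- cells. Il21r, the private chain of the IL-21 receptor, stood at 119 FPKM in Nrn1-/- cells, against 99.1 FPKM in Nrn1+/- cells. The order of these neighbouring genes was thus reversed, with Il21r above Il4ra in Nrn1-/- cells and below it in Nrn1+/- cells. Il4ra was 1.14-fold lower (counting interval 1.12 to 1.16) and Il21r 1.20-fold higher (1.17 to 1.23) in the Nrn1-/- library. The ratio of Il4ra to Il21r, free of scaling, was 0.822 in Nrn1-/- cells and 1.13 in the Nrn1+/- library, a 1.37-fold difference. Il21r had the highest log2 ratio of the 10 genes, at percentile 75.1 of all genes tested, although it too was slightly lower in Nrn1-/- cells (-0.03) when the sums over all rows were made equal.

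Il15ra, the alpha chain that binds and presents IL-15, stood at 24.4 FPKM in Nrn1-/- cells, against 24.0 FPKM in Nrn1+/- cells. The ratio of 1.02 had a counting interval of 0.86 to 1.20 with the shortest coding transcript (256 fragments in Nrn1-/- cells and 318 in Nrn1+/- cells), and of 0.95 to 1.09 with the longest (1687 in Nrn1-/- cells and 2166 in Nrn1+/- cells). Both intervals include 1, so a difference was not detectable with either transcript. Il9r, the private chain of the IL-9 receptor, was the least abundant member at 1.497 FPKM in Nrn1-/- cells, against 2.54 FPKM in Nrn1+/- cells. It rested on an estimated 80 fragments in Nrn1-/- cells and 177 in Nrn1+/- cells if the shortest coding transcript is taken, or on 256 in Nrn1-/- cells and 570 in Nrn1+/- cells with the longest. Without a pseudocount Il9r was 1.70-fold lower in Nrn1-/- cells (counting interval 1.30 to 2.24), and with a pseudocount of 1 FPKM its log2 ratio was -0.51, short of 1.5-fold. Its level was near the minimum of 1 FPKM set for the mean, so the fold depends on the pseudocount.

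The JAKs that the chains carry differed in opposite directions as deposited, although Jak3 also turned lower under 2 of the other scalings. Jak1, bound to the partner chains and also used by interferon and IL-6 family receptors, stood at 80.0 FPKM in Nrn1-/- cells, against 103 FPKM in Nrn1+/- cells. Jak3, bound to the common gamma chain, stood at 81.8 FPKM in Nrn1-/- cells, against 75.9 FPKM in Nrn1+/- cells. The kinases were therefore nearly level in Nrn1-/- cells, whereas Jak1 was the more abundant in Nrn1+/- cells. The ratio of Jak1 to Jak3 was 0.978 in Nrn1-/- cells and 1.36 in the Nrn1+/- library, 1.39-fold apart. Jak1 was 1.29-fold lower (counting interval 1.26 to 1.32) and lay at percentile 14.3 of all genes tested, while Jak3 was 1.08-fold higher (1.05 to 1.10) at percentile 60.1. The other family members were Jak2, used by the interferon-gamma and IL-12 family receptors among others, at 49.5 FPKM in Nrn1-/- cells, against 45.0 FPKM in Nrn1+/- cells, and Tyk2, used by type I interferon and IL-12 family receptors, at 19.6 FPKM in Nrn1-/- cells and 22.2 FPKM in Nrn1+/- cells. Neither reached 1.5-fold.

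**Figure D2:**
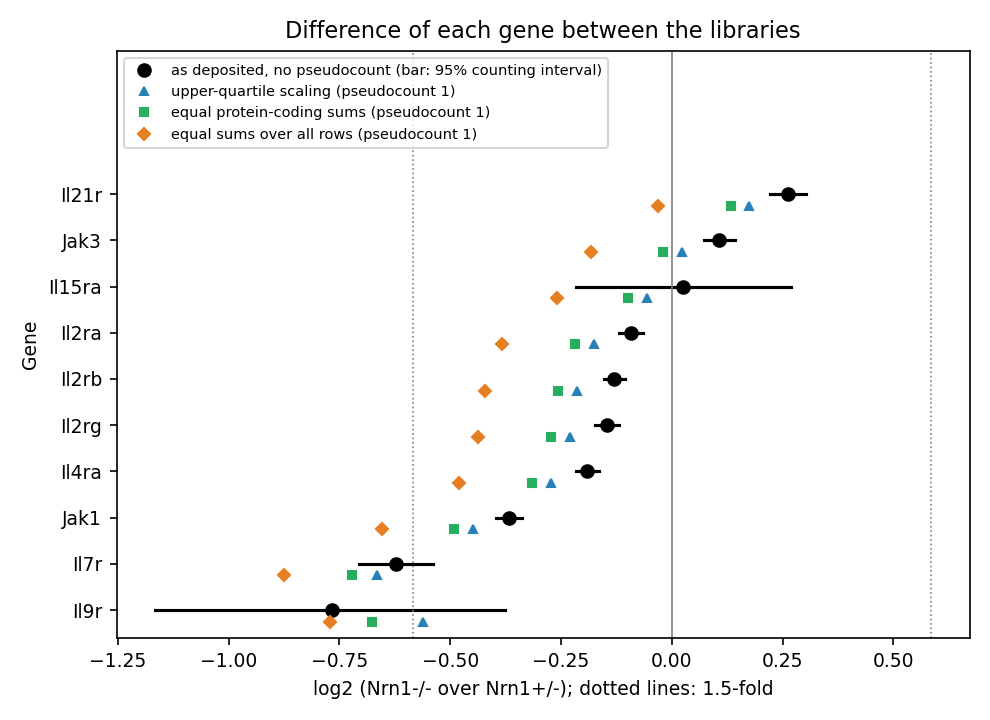
Difference of each gene between the libraries as log2 of Nrn1-/- over Nrn1+/-, with black points for values as deposited, bars for the 95% counting interval, and coloured symbols for 3 other scalings of the libraries. Il9r and Il7r lie lowest as deposited and Il21r highest, and equal sums over all rows put all 10 genes below 0.

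Over the 10 genes, 7 were lower and 3 higher in Nrn1-/- cells as deposited, and 8, 9 and 10 were lower with upper-quartile scaling, equal protein-coding sums and equal sums over all rows. Of all genes, 47.7% were lower as deposited, and 56.5%, 61.3% and 75.6% with those scalings. Their median log2 ratio was -0.14, against 0.02 over all 12344 genes and 0.04 over the 10695 protein-coding genes. The log2 ratios ranged from -0.59 for Il7r to 0.26 for Il21r, and the standard deviation over protein-coding genes was 0.37. Direction depended on scaling for some members. Il15ra turned negative with upper-quartile scaling (-0.06), with equal protein-coding sums (-0.10) and with equal sums over all rows (-0.26). Jak3 turned negative with equal protein-coding sums (-0.02) and equal sums over all rows (-0.18), and Il21r only with the last (-0.03). The other 7 genes were lower as deposited and stayed so, as these scalings all act downward on the ratio. Each of these scalings multiplies all values of a library by 1 factor, and the median shift of the log2 ratios over all genes was -0.08, -0.12 and -0.28, with the pseudocount making the shift differ between genes. The sum over all rows was 790935 FPKM in Nrn1-/- cells and 645876 FPKM in Nrn1+/- cells. Over protein-coding rows it was 647545 FPKM in Nrn1-/- cells and 593035 FPKM in Nrn1+/- cells. Equal sums over all rows thus also carry a difference in rows that are not protein-coding. The split of all genes past 1.5-fold was 926 higher and 651 lower as deposited, 688 and 896 with upper-quartile scaling, 703 and 1363 with equal protein-coding sums, and 426 and 2292 with equal sums over all rows. The genes that reached a mean of 1 numbered 12344, 12352, 13262 and 13012 in that order, so these splits and shares are over unlike sets. Equal sums were set to 1000000, which raised the values, so the pseudocount weighs less there. With equal sums over all rows Il7r, Il9r and Jak1 were past 1.5-fold lower, against 17.6% of all genes.

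Among the 45 ratios between pairs of members, 10 differed by at least 1.5-fold between the libraries. Il9r took part in 6 of them and Il7r in 3, and the remaining ratio was that of Il21r to Jak1, at 1.49 in Nrn1-/- cells and 0.960 in the Nrn1+/- library. Il7r to Il21r was 0.111 in Nrn1-/- cells and 0.206 in the Nrn1+/- library, a 1.84-fold difference. Il7r to Jak3 was 0.162 in Nrn1-/- cells and 0.268 in Nrn1+/- cells, 1.66-fold apart. With a pseudocount of 1 FPKM on both genes, 6 of the 45 ratios were past 1.5-fold. All 45 ratios derive from the folds of the same 10 genes, so they are not separate results. The share past 1.5-fold among pairs of all genes was not computed, so these counts have no background beside them.

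**Figure D3:**
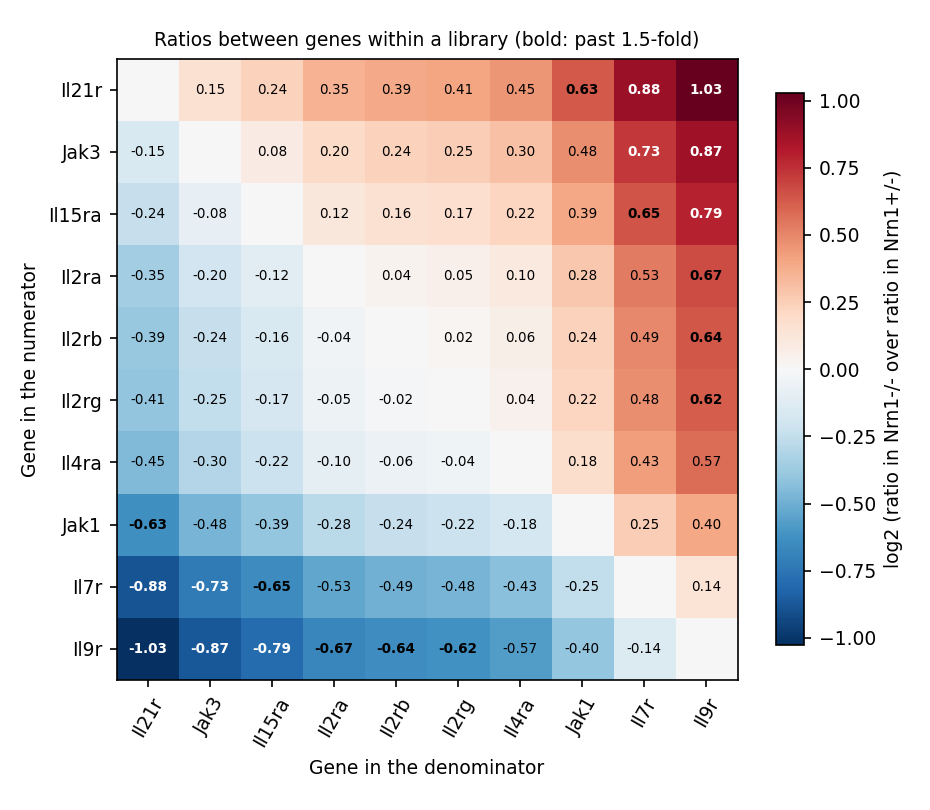
Log2 of the ratio of the row gene to the column gene in the Nrn1-/- library over the same ratio in the Nrn1+/- library, for all pairs of the 10 genes, without pseudocount and with values past 1.5-fold in bold. The IL-2 receptor genes differ from each other by at most 0.05, while the Il9r and Il7r rows hold most of the bold values and Il21r to Jak1 stands at 0.63.

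The composition of the chains that pair with the common gamma chain to signal was also compared. Of the summed FPKM of Il2rb, Il4ra, Il21r, Il7r and Il9r, Il2rb held 62.4% in Nrn1-/- cells and 64.3% in the Nrn1+/- library. Il21r held 19.3% in Nrn1-/- cells and 15.2% in Nrn1+/- cells. Il4ra held 15.9% in Nrn1-/- cells and 17.1% in Nrn1+/- cells. Il21r thus held more than Il4ra in Nrn1-/- cells and less in Nrn1+/- cells. Il7r held 2.15% in Nrn1-/- cells and 3.12% in Nrn1+/- cells, and Il9r 0.243% in Nrn1-/- cells and 0.389% in Nrn1+/- cells. Il21r was the only one of the 5 chains with the larger share in Nrn1-/- cells. Summed over the 5 chains, partner transcripts stood at 1.89 times Il2rg in Nrn1-/- cells and 1.82 times in the Nrn1+/- library.

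Levels stood in the same order in both libraries at the top and the bottom, with Il2ra, Il2rb and Il2rg first and Il15ra, Il7r and Il9r last. In the Nrn1-/- library the middle ran Il21r, Il4ra, Jak3 and Jak1. In the Nrn1+/- library it ran Il4ra, Jak1, Il21r and Jak3. The closest neighbours were Jak3 and Jak1, 1.02-fold apart in Nrn1-/- cells, and Jak1 and Il21r, 1.04-fold apart in Nrn1+/- cells. Whether neighbours differ beyond the spread between animals cannot be measured with 1 library each.

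Of the 6 cytokines that use the common gamma chain, 4 reached a mean of 1 FPKM, and 1 of these was past 1.5-fold, Il9, which was higher. Il9 stood at 8.39 FPKM in Nrn1-/- cells, against 2.51 FPKM in Nrn1+/- cells, 3.34-fold higher, whereas its receptor gene Il9r was lower. No counting interval was computed for Il9, which like Il9r was low in the Nrn1+/- library. Of all genes tested, 7.5% were at least 1.5-fold higher as deposited. Il2, the growth and survival factor of Treg cells, was at 62.4 FPKM in Nrn1-/- cells, against 46.9 FPKM in Nrn1+/- cells. It lay above the median gene tested, at 15.4 FPKM in Nrn1-/- cells and 15.2 FPKM in Nrn1+/- cells. The 30 markers of other cells include none for conventional CD4 T cells, and which cells held the Il2 transcripts was not tested. Both Il9 and Il2 were higher in Nrn1-/- cells under every scaling tried. Il21 was at 2.31 and 2.98 FPKM in Nrn1-/- and Nrn1+/- cells, the opposite direction to Il21r. Il4 was at 12.3 FPKM in Nrn1-/- cells and 12.5 FPKM in Nrn1+/- cells. Il7 and Il15, usually made by stromal and myeloid cells, were at most 0.162 FPKM in either library.

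The relatives of these receptors include Crlf2, which joins Il7r in the receptor for TSLP. Crlf2 was at 64.7 FPKM in Nrn1-/- cells, against 73.1 FPKM in Nrn1+/- cells, above Il7r in both. Il13, whose receptor uses Il4ra, was at 25.4 FPKM in Nrn1-/- cells, against 16.3 FPKM in Nrn1+/- cells, past 1.5-fold higher as deposited, but not with upper-quartile scaling or with equal sums. Its other receptor chain Il13ra1 was at 0.228 FPKM in Nrn1-/- cells and 0.240 FPKM in Nrn1+/- cells, Il13ra2 was listed at 0 in both libraries, and Tslp was at 0.027 FPKM in Nrn1-/- cells and listed at 0 in Nrn1+/- cells.

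Downstream, 0 of 5 STAT genes used by these receptors were past 1.5-fold, and their median log2 ratio was -0.24. Stat5a was the single one higher, at 141 FPKM in Nrn1-/- cells, against 116 FPKM in Nrn1+/- cells. Its close copy Stat5b was at 71.6 and 84.8 FPKM in Nrn1-/- and Nrn1+/- cells. The paralogs thus differed in opposite directions, except with equal sums over all rows, where Stat5a was at a log2 ratio of -0.005. The log2 ratio was -0.27 for Stat3 and -0.19 for Stat6.

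Of 18 STAT5 and IL-2 response genes, 9 were higher and 9 lower, 0 past 1.5-fold higher and 1 lower, and the median log2 ratio was -0.002. Bcl2, a survival gene, was the one past 1.5-fold, at 25.5 FPKM in Nrn1-/- cells, against 43.9 FPKM in Nrn1+/- cells. The other lowest was Socs3, a feedback suppressor, at 56.8 and 79.4 FPKM in Nrn1-/- and Nrn1+/- cells. At the other end were Gzmb, encoding granzyme B, with a log2 ratio of 0.57, and the chemokine receptor gene Ccr8 with 0.50. The balance moved to 8 higher and 10 lower with upper-quartile scaling, 7 and 11 with equal protein-coding sums, and 6 and 12 with equal sums over all rows.

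Among 11 suppressors and phosphatases of cytokine signalling, 1 was past 1.5-fold higher and 0 lower (median log2 ratio -0.06). Some of them, Socs3 included, are also among the STAT5 and IL-2 response genes, so the lists are not separate. Ptpn6, encoding the phosphatase SHP-1, was at 113 FPKM in Nrn1-/- cells, against 74.7 FPKM in Nrn1+/- cells. Ptpn11, encoding the related SHP-2, was at 40.9 and 29.8 FPKM in Nrn1-/- and Nrn1+/- cells. Pias1, an inhibitor of activated STAT proteins, was among the lowest with Socs3, at a log2 ratio of -0.41. The ratio of Ptpn6 was close to the threshold, at 1.51-fold, and was short of it under the 4 other scalings, median-centring included. Among 8 adaptors and linked kinases that reached a mean of 1 FPKM, 0 were past 1.5-fold (median -0.15). Pik3r1, the regulatory subunit of PI3-kinase, had the lowest log2 ratio at -0.53, followed by the insulin receptor substrate gene Irs2 at -0.43, and the highest were those of the adaptor gene Grb2 at 0.04 and the kinase gene Lck at 0.02.

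Cytokine receptors of other families were set beside the common gamma chain family, most of them JAK-coupled, with Il17ra as one that does not use JAKs. Of 20 such genes 15 reached a mean of 1 FPKM, 14 of these were lower in the Nrn1-/- library, 2 past 1.5-fold, and the median log2 ratio was -0.26. Of all genes tested, 47.7% were lower and 5.27% past 1.5-fold lower. Ifngr1, the ligand-binding chain for interferon-gamma, was at 175 FPKM in Nrn1-/- cells, against 323 FPKM in Nrn1+/- cells, 1.85-fold lower. Il10ra was at 20.4 and 31.5 FPKM in Nrn1-/- and Nrn1+/- cells, 1.54-fold lower. The single higher gene was Il12rb1, at 82.1 FPKM in Nrn1-/- cells and 67.4 FPKM in Nrn1+/- cells, and with equal sums over all rows it was lower as well. With equal sums over all rows 5 of the 15 were past 1.5-fold lower, against 17.6% of all genes under that scaling. So were 4 of the 18 STAT5 and IL-2 response genes and 3 of the 11 suppressors and phosphatases, with Socs3 counted in both. The same held for 3 of the 8 adaptors and 1 of the 7 regulators of Il7r. Whether the families differ was not tested, since 1 library per genotype gives no error for the comparison.

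**Figure D4:**
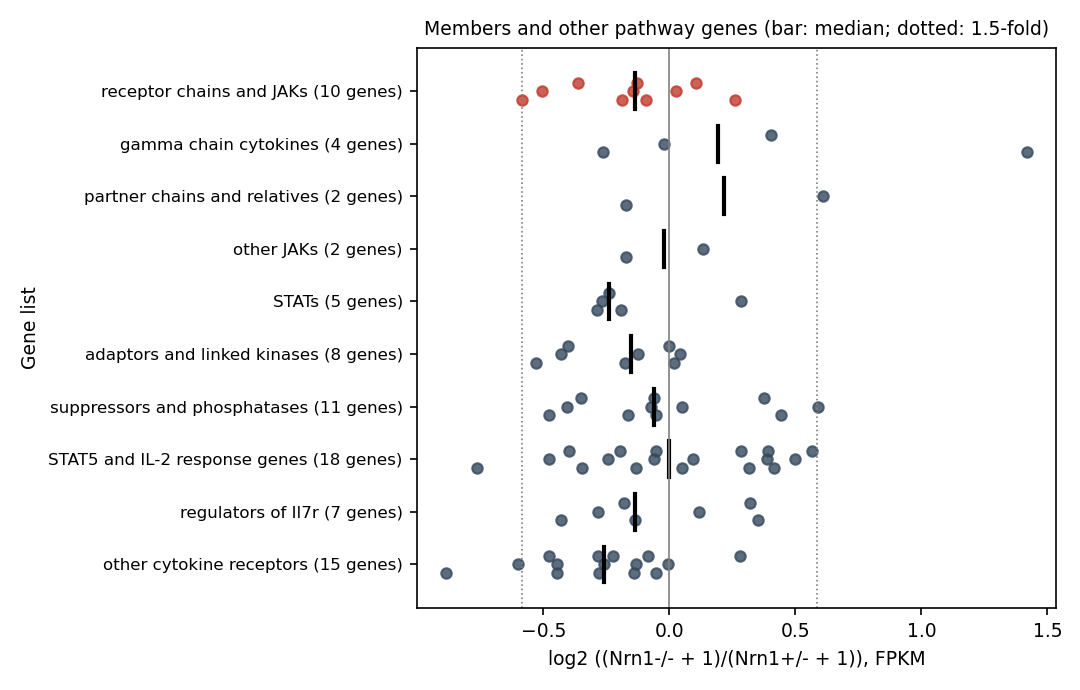
Log2 ratio of Nrn1-/- over Nrn1+/- with a pseudocount of 1 FPKM for the 10 genes (red, top) and for the genes of 9 further lists with a mean of at least 1 FPKM, 1 point per gene, with a bar at each median and dotted lines at 1.5-fold. The medians of the lists lie between -0.26 and 0.22, and Bcl2, Ptpn6, Il9, Il13, Ifngr1 and Il10ra lie past the dotted lines beside Il7r.

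Overlapping annotation could touch some values. Genes on the same strand can share fragments with a member however strand was treated. Within an Il2ra intron lies Gm37881, an unclassified transcript listed at 44.6 FPKM in Nrn1-/- cells, against 55.7 FPKM in Nrn1+/- cells. Il2rg shares 728 exon bases with the read-through gene Gm20489, at 0.185 and 0.263 FPKM in Nrn1-/- and Nrn1+/- cells. Jak3 shares 404 exon bases with Insl3, at 3.95 FPKM in Nrn1-/- cells and 4.18 FPKM in Nrn1+/- cells. These neighbours stood far below the members they overlap. On the opposite strand, Il4ra shares 571 exon bases with the antisense gene Gm44876 and Jak1 shares 4 with Raver2, and the sources used here do not say whether counting used strand. Raver2 was at 0.246 FPKM in Nrn1-/- cells and 0.256 FPKM in Nrn1+/- cells, and Gm44876 was not analysed here.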

How the data were processed

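Poly(A) RNA libraries of 2 sorted cell samples were made by a service laboratory with a NEBNext Ultra kit, per the labels' protocols. The deposited values are FPKM per gene. The submitters' processing notes name FastQC, TopHat, Cuffdiff and Cuffnorm without versions, and mm10 and GRCm38. The unit was taken from Cuffnorm and from values that are not whole and step with transcript length. The sources used here give neither the gene annotation nor any scaling between libraries, so other scalings were tried. Any such scaling could move every fold.

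Rows sharing a symbol were summed (46511 rows, 46398 symbols). Per gene, log2((Nrn1-/- + 1)/(Nrn1+/- + 1)) was taken, the pseudocount being 1 FPKM, over 12344 genes averaging 1 FPKM or more. Folds quoted for single genes carry no pseudocount. Groups came from the genotype labels. The value of 1 fragment was the spacing that best made FPKM times transcript length, less 205 bases in Nrn1-/- cells and 215 in the Nrn1+/- library, whole in single-transcript genes of at least 1500 bases. Within 0.1 of a whole number lay 95.5% (1232 genes, Nrn1-/-) and 95.4% (1397 genes, Nrn1+/-), against 20% by chance. The spacing was 1.31 times as wide in Nrn1-/- cells, which means fewer fragments there unless the authors scaled the libraries to each other. Counting intervals are exact binomial (Clopper-Pearson) intervals of the fragment split, using the shortest coding transcript. They cover counting error only: without molecular identifiers, fragments are not independent molecules. The ratio and the spacing were tested on simulated data. Python 3.11.15, pandas 2.3.3 and scipy 1.17.1 were used.

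The members and lists were chosen with earlier results of these data known. All members were named, with every gene of lists of up to 7 genes and, in longer lists, the 2 highest and 2 lowest log2 ratios where they had that sign. Some items the rule covers are not reported here. No genes of like pattern were named, because 2 libraries give 1 difference per gene.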

Additional observations from a re-analysis of the deposited data

How the results depend on the processing

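The count of members past 1.5-fold was 1 as reported. It was 2 with a pseudocount of 0.1 FPKM, 3 at a fold threshold of a 25% excess and 0 at a 2-fold threshold. It was 3 with equal sums over all rows and 2 with equal protein-coding sums (a scaling chosen after seeing the data). Among the 12344 genes tested, 2461 were higher and 2078 lower at the 25% excess, and 244 and 137 at 2-fold. With the pseudocount of 0.1 FPKM, 1133 were past 1.5-fold higher and 972 lower. Past 1.5-fold lower were 17.6% of the 13012 genes that reached a mean of 1 with equal sums over all rows. With equal protein-coding sums it was 10.3% of 13262 genes. The median log2 ratio of the members was -0.22 with upper-quartile scaling, -0.26 with equal protein-coding sums and -0.43 with equal sums over all rows, against -0.14 as reported. These scalings lower the plain ratio of every gene by construction, so genes that were lower as deposited stay lower under them. Ratios between members past 1.5-fold numbered 10 without and 6 with a pseudocount of 1 FPKM, which shrinks ratios of low genes such as Il9r. Centring on the median of all genes, no filter, a minimum mean of 5 FPKM and the choice of rows left the count of members at 1. Only the centring could have changed it. All 10 genes already passed the filter, the higher minimum dropped only Il9r, which was short of 1.5-fold, and the choice of rows altered no member's value. Il9r could not be kept at a minimum mean of 5 FPKM. The log2 ratios of Il7r and Jak1 moved to as low as -0.88 and -0.66, both with equal sums over all rows. Of 198 values for the 9 other lists, 143 stayed within the limits set and 55 moved. Some of these could not move. A change of fold threshold cannot alter a list median, and a protein-coding background cannot alter a list median or count. The 143 are therefore no measure of stability. The estimated fragments limit Il9r and Il15ra most, and depend on the transcript taken. No library could be left out, since each genotype has 1. No paired analysis was possible because each group has 1 library.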
